A study of Mus musculus with 6 samples.

Results

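Mouse embryonic fibroblasts (MEFs) at passage 1 that had received 20 µM α-amyrin for 3 days were compared with passage 1 cells that had received vehicle, gene by gene, in poly(A) RNA. The comparison rests on 2 of the 6 libraries of the study, 1 for each condition, chosen by their titles. Both libraries came from wild-type cells labelled non-senescent, and no other allele or agent is named for them. The remaining libraries are passage 1 cells with 20 µM β-amyrin, and wild-type passage 6 cells labelled senescent with vehicle, α-amyrin or β-amyrin, each for 3 days and each with 1 library. The labels do not say what the vehicle was, how many embryos gave the cells, or whether the libraries came from separate cultures.

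α-Amyrin is a plant triterpene alcohol with a skeleton of fused rings. MEFs are a mixed primary culture dominated by connective tissue cells, which secrete collagens, elastic fibre proteins and proteoglycans and which contract on stiff plastic. They also sense amino acid supply through the translation factor pathway that ends in ATF4, and viral RNA or DNA through the interferon pathway, so each of these programmes has a known set of target genes that can be read in such an experiment.

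With 1 library a side no replicate spread exists, so no p-value is given for any gene. Each difference is a log2 ratio of α-amyrin over vehicle, computed from CPM (counts per 1000000 counts of effective library size) with a prior count of 2, and each interval given is a 95% exact (Clopper-Pearson) interval that covers counting error only. The vehicle library held 26136738 counts and the α-amyrin library 28752332, and the 6 libraries ranged from 18798418 to 28752332. Mitochondrial genes took 1.65% and 1.62% of counts in the pair. Of 55487 genes in the table, 16962 passed a filter on low counts, and their median log2 ratio was -0.0038 with a standard deviation of 0.35. Defining fibroblast markers were abundant: Vim, an intermediate filament of mesenchymal cells, stood at 2763 and 2884 CPM and Thy1, a fibroblast surface protein, at 295 and 307 CPM in vehicle and α-amyrin. In bulk RNA, fewer cells of a type and less RNA per cell cannot be told apart, which holds for every difference given here.

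Few genes differed by a large factor. By a size rule of at least 2-fold and at least 5 CPM in either library, 35 genes were higher with α-amyrin, which is 0.206% of the genes that passed the filter, and 21 were lower, which is 0.124%. A weaker rule of 1.5-fold gave 165 higher and 122 lower genes. The 35 higher genes were 30 protein-coding genes, 4 processed pseudogenes and 1 antisense gene, and the 21 lower ones 17 protein-coding genes, 3 processed pseudogenes and 1 miRNA gene. Of all genes that passed the filter, 809 were processed pseudogenes, which is 4.77%. Among the higher genes, 12 encode secreted or matrix proteins and 7 encode membrane or surface proteins. Among the lower ones, 6 encode secreted or matrix proteins and 5 membrane or surface proteins. These places were assigned by hand after the values were seen, without a count of the same kind over all genes. The median ratio was 1.18 for the higher genes and -1.19 for the lower ones; for β-amyrin over the same vehicle library the same genes had medians of 0.40 and -0.46, values that share the vehicle library with the choice of the genes. The genes nearest the 2-fold limit were AW551984 (1.01) just inside and Lum (0.99) just outside on the higher side, and Slc7a3 (-1.02) just inside and Crispld2 (-0.98) just outside on the lower side.

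**Figure D1:**
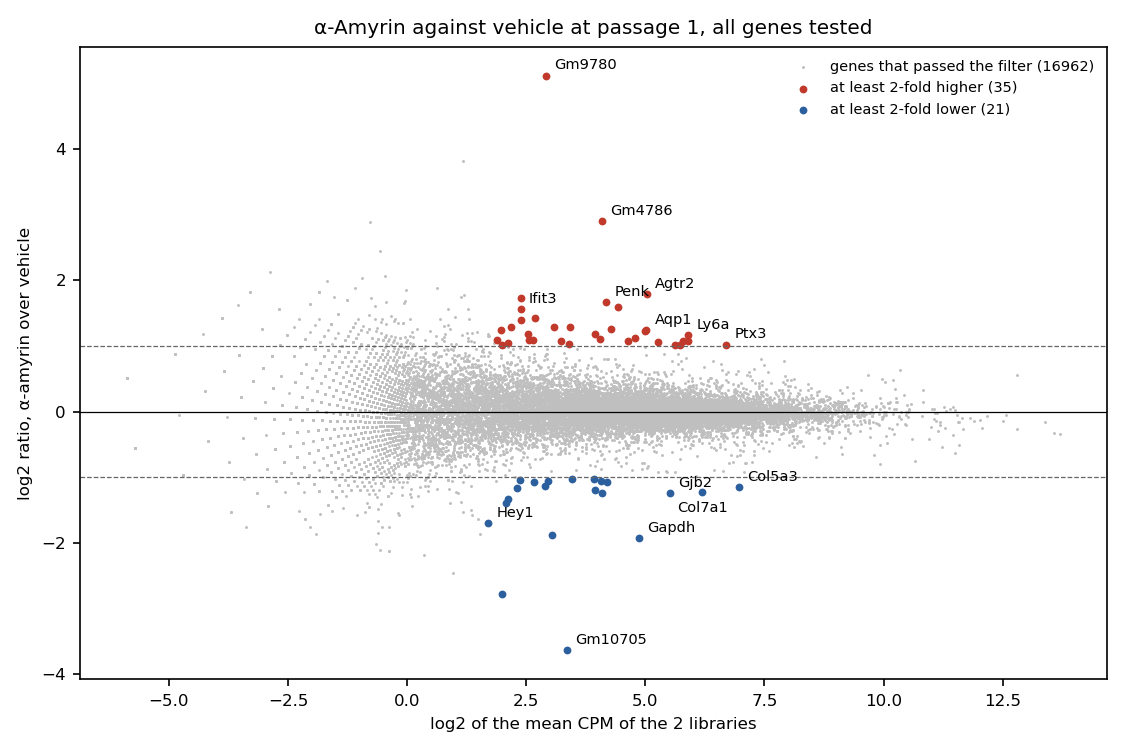
Log2 ratio of α-amyrin over vehicle at passage 1 (vertical) against log2 of the mean CPM of both libraries (horizontal), 1 point per gene for the 16962 genes that passed the filter. Dashed lines mark 2-fold; red points are the 35 higher genes and blue points the 21 lower genes of the size rule, which also asks for 5 CPM in either library. Most genes lie close to 0, and the spread widens to the left where counts are low.

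Outside pseudogenes and numbered gene models, the highest ratio belonged to a receptor. Agtr2, which encodes the type 2 angiotensin II receptor (ENSMUSG00000068122, mm10 chromosome X, 21484544 to 21489164), stood at 14.6 CPM with vehicle and 50.9 CPM with α-amyrin, a log2 ratio of 1.79 with an interval of 1.64 to 1.96. It stood at 20.9 CPM with β-amyrin, and at passage 6 at 13.4 CPM with vehicle and 24.1 CPM with α-amyrin. The α-amyrin library was the higher member of the pair at either passage, by a smaller ratio of 0.84 at passage 6. Penk, the precursor of the enkephalin opioid peptides (chromosome 4, 4133531 to 4138819), stood at 8.62 and 27.6 CPM, a ratio of 1.67. At passage 6 it stood at 21.8 and 36.1 CPM, again higher with α-amyrin, with a ratio of 0.73.

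Several other higher genes encode channels, surface proteins and secreted regulators. Aqp1, a water channel, stood at 19.3 CPM with vehicle and 45.6 CPM with α-amyrin, a ratio of 1.23, and at 24.9 and 43.4 CPM at passage 6. Ly6a, the surface antigen Sca-1 of mesenchymal and blood progenitors, stood at 36.6 and 82.2 CPM, a ratio of 1.16. Mme, the cell surface peptidase neprilysin that cleaves enkephalins among other peptides, stood at 25 and 52.2 CPM with a ratio of 1.06. These surface genes were also higher with α-amyrin at passage 6, where the ratios were 0.80 for Aqp1, 0.56 for Ly6a and 0.40 for Mme.

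Secreted signalling proteins among the higher genes act in several pathways. Sfrp2, a secreted antagonist and modulator of WNT signals, stood at 19 CPM with vehicle and 44.7 CPM with α-amyrin, a ratio of 1.23. Rspo2, an R-spondin that strengthens WNT signals, had a ratio of 1.10 at 10.4 and 22.4 CPM. Vegfd, a growth factor for lymphatic vessels, had a ratio of 1.01 at 35.1 and 70.7 CPM. Ptx3, a long pentraxin of innate immunity that also stabilises hyaluronan matrix, was the most counted gene among the 35, with 1795 and 4111 counts and a ratio of 1.02. Cxcl5, a chemokine that attracts neutrophils, had a ratio of 1.07 at 15.9 and 33.5 CPM. For Ptx3 and Sfrp2 the passage 6 ratios were 0.05 and 0.12, so the size seen at passage 1 was not seen there. Angptl7, a secreted angiopoietin-like protein, had a ratio of 1.29, but it lies inside Mtor, a kinase gene of the other strand that stood at 65.5 and 67.3 CPM.

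Intracellular regulators were fewer. Gda, the guanine deaminase of purine breakdown, had a ratio of 1.42 at 3.45 and 9.37 CPM. Arhgap20, a GTPase-activating protein, stood at 11.4 and 27.3 CPM and had a passage 6 ratio of 0.96. Meox2, a homeobox transcription factor of mesoderm, had a ratio of 1.18 at 3.52 and 8.08 CPM, and Osr2, a zinc finger factor of limb and palate mesenchyme, had a ratio of 1.04 at 2.80 and 5.84 CPM. Their levels are low, so their intervals are wide: 0.84 to 1.56 for Meox2 and 0.66 to 1.48 for Osr2.

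**Figure D2:**
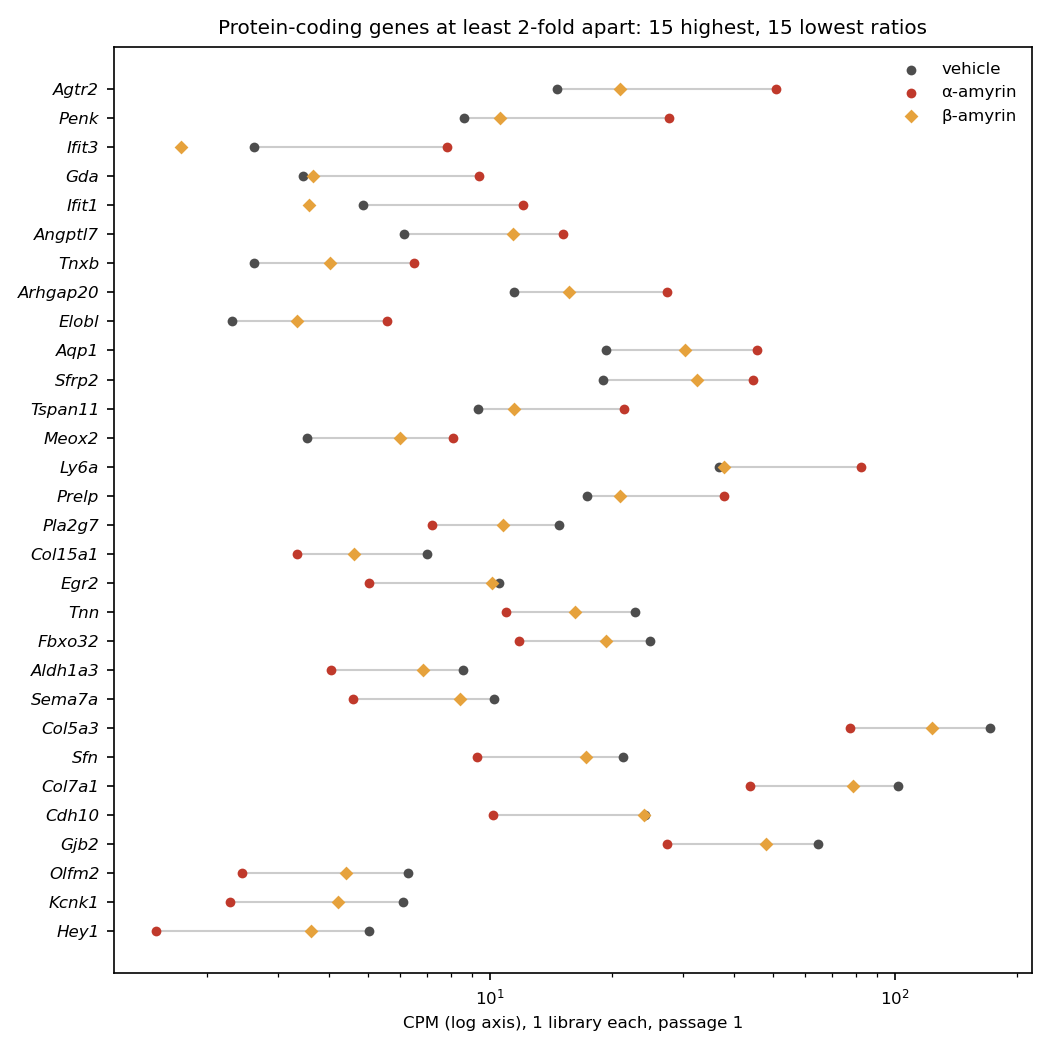
CPM on a log axis with vehicle (grey), α-amyrin (red) and β-amyrin (amber) at passage 1, 1 library each, for the protein-coding genes of the 2-fold rule with the 15 highest and 15 lowest ratios, leaving out numbered gene models and Gapdh. The grey line joins vehicle and α-amyrin; Agtr2 runs from 14.6 to 50.9 CPM and Col5a3 from 172 down to 77.5 CPM. The α- and β-amyrin libraries are set beside the same vehicle library.

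Among the lower genes, matrix and cell contact proteins carried the highest counts. Col5a3, a chain of collagen V that seeds and limits collagen I fibrils (chromosome 9, 20770050 to 20815067), stood at 172 CPM with vehicle and 77.5 CPM with α-amyrin, a log2 ratio of -1.15 with an interval of -1.22 to -1.07. Col7a1, the anchoring fibril collagen (chromosome 9, 108953586 to 108984875), stood at 102 and 43.7 CPM with a ratio of -1.22. Gjb2, the gap junction protein connexin 26 (chromosome 14, 57098600 to 57104702), stood at 64.5 and 27.3 CPM with a ratio of -1.24. At passage 6 Gjb2 was lower with α-amyrin by as much, at 22.2 and 8.27 CPM, whereas Col7a1 stood at 80.9 and 77.8 CPM there. Tnn, the matrix protein tenascin-W, had a ratio of -1.05 at 22.8 and 10.9 CPM and a passage 6 ratio of 0.07.

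The other lower genes include transcription factors, channels and enzymes. Hey1, a Notch target repressor, stood at 5.02 and 1.49 CPM, a ratio of -1.70, and at 3.63 and 2.28 CPM at passage 6. Egr2, an immediate early zinc finger factor, stood at 10.5 and 5.02 CPM with a ratio of -1.05. Kcnk1, a potassium leak channel, and Olfm2, a secreted olfactomedin, had ratios of -1.39 and -1.33. At passage 6 their ratios were -1.38 and -1.46, but these rest on few counts. Kcnk1 stood at 1.10 and 0.371 CPM there with vehicle and α-amyrin, and Olfm2 at 5.11 and 1.80 CPM. Cdh10, a type II cadherin, had a ratio of -1.24 at 24.1 and 10.2 CPM. Sfn, the 14-3-3 sigma protein, had a ratio of -1.19 at 21.3 and 9.27 CPM. Fbxo32, the ubiquitin ligase atrogin-1 of muscle protein breakdown, had a ratio of -1.07, Aldh1a3, an enzyme that makes retinoic acid, had -1.07, and Sema7a, a membrane semaphorin that binds integrins, had -1.14.

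Groups of genes were then read through 42 lists drawn up from textbook knowledge, but with earlier results of these data known. The shares over all genes given below do not correct for that choice of members. For a list, a member counts as higher or lower at any size, or by the weaker rule of a log2 ratio of at least 0.32 in size with 5 CPM in either library. Over all 16962 genes, 49.3% were higher and 50.7% lower at any size, 4.17% were at least 0.32 higher and 3.48% at least 0.32 lower. Of these genes 11642 reached 5 CPM in either library, and the others could not meet the weaker rule. The median over all genes was -0.0038, against which each list median can be read.

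**Figure D3:**
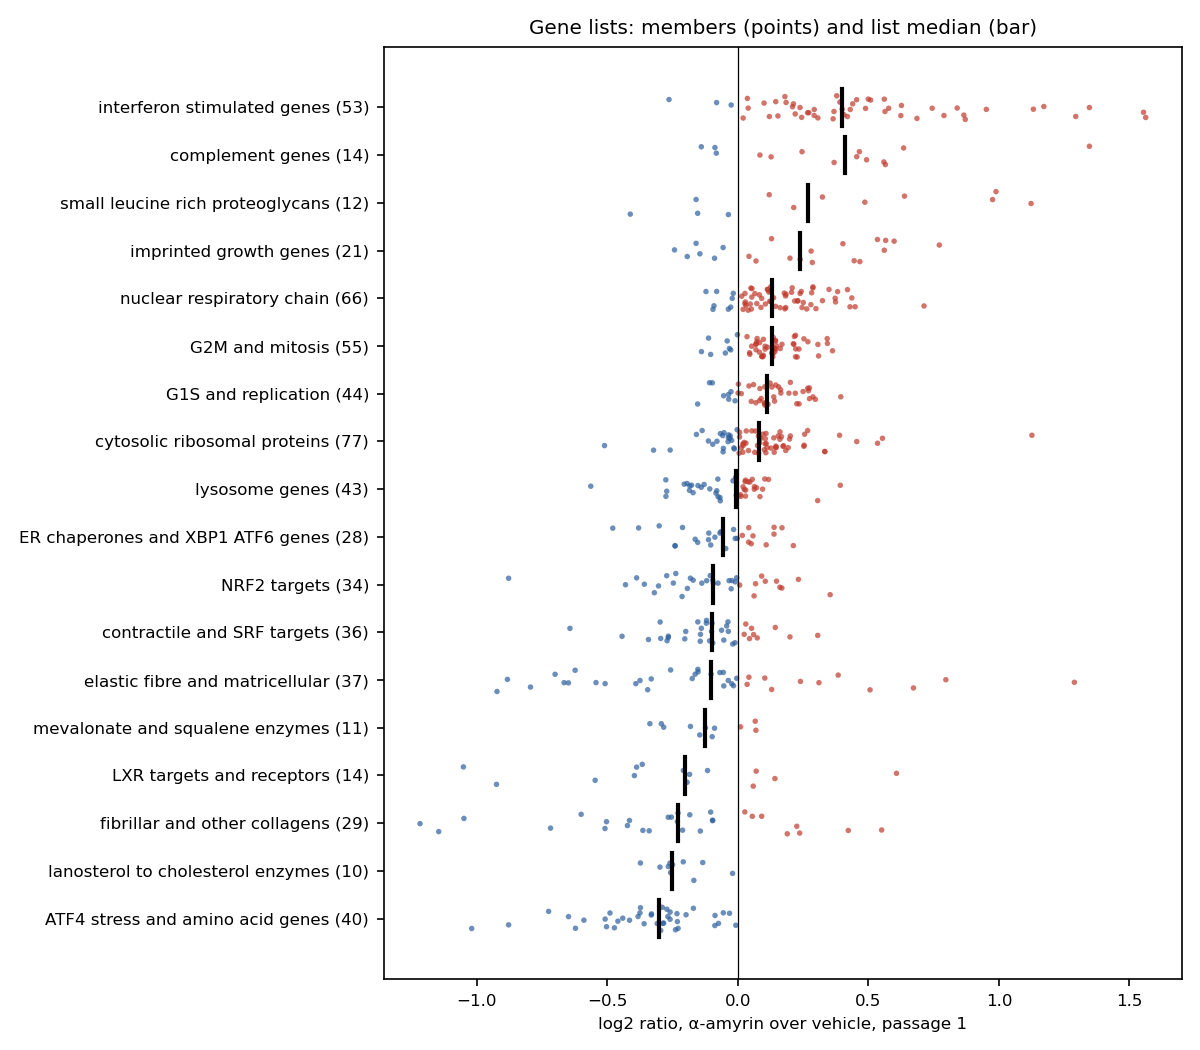
Log2 ratios of α-amyrin over vehicle for members of 18 of the 42 lists that passed the filter, 1 point per gene, with the list median as a black bar and the number of members in brackets. Points are spread vertically only to separate them. The interferon-stimulated genes (median 0.40) and the ATF4 genes (median -0.30) lie on opposite sides of 0, with the complement genes (median 0.41) beside the former, and each list has members on both sides of 0 except, with this scaling, the ATF4 and lanosterol lists.

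Collagen genes were mostly lower with α-amyrin. Of 29 collagen chain genes that passed the filter out of 32 listed, 21 were lower and 8 higher, 10 were at least 0.32 lower and none at least 0.32 higher with 5 CPM, and the median log2 ratio was -0.23. Beside Col7a1 and Col5a3, Col15a1, a basement membrane zone collagen, had a ratio of -1.05 at 6.97 and 3.33 CPM. Col5a1, the main collagen V chain, stood at 3581 and 2526 CPM, a ratio of -0.50. Col1a1, the main fibrillar collagen of connective tissue, stood at 14997 and 11848 CPM, a ratio of -0.34, and Col1a2, its partner chain, at 7828 and 6505 CPM with -0.27. The basement membrane chains Col4a1 and Col4a2, which are read from a shared promoter region, both had a ratio of -0.42. Collagen III and VI differed little: Col3a1 had -0.10, Col6a1 0.09 and Col6a2 0.03. At passage 6 the list median was -0.20, with 22 members lower and 7 higher.

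Genes for elastic fibres and the cell-regulating matrix lay on both sides of 0. Of 37 members, 26 were lower and 11 higher, 12 were at least 0.32 lower and 5 at least 0.32 higher, with a median of -0.10. Postn, periostin of wound and periosteal matrix, stood at 1228 and 708 CPM, a ratio of -0.79. Eln, elastin, stood at 1088 and 686 CPM with -0.67, and Tnc, tenascin-C of wounds and embryos, at 3527 and 2289 CPM with -0.62. Fn1, fibronectin, stood at 13576 and 10785 CPM with -0.33. On the higher side, Efemp1, fibulin-3, stood at 125 and 217 CPM with 0.80, Emilin2, an elastic fibre glycoprotein, at 58.2 and 92.9 CPM with 0.67, and Tnxb, tenascin-X, at 2.61 and 6.48 CPM with 1.29. Thus within a single family Tnxb was higher while Tnc and Tnn were lower.

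Small leucine-rich proteoglycans, which coat collagen fibrils and set their width, leaned the other way. Of 12 that passed the filter out of 14, 8 were higher, 5 of them by at least 0.32, and none with 5 CPM was 0.32 lower, with a median of 0.27. Prelp, which links collagen to heparan sulphate, stood at 17.3 and 37.8 CPM with a ratio of 1.12. Lum, lumican, stood at 21.2 and 42.1 CPM with 0.99, Omd, osteomodulin, at 2.91 and 5.81 CPM with 0.98, and Dcn, decorin, at 86.4 and 121 CPM with 0.49. For β-amyrin over the same vehicle library 8 of the 12 were higher and 4 lower, with a median of 0.16. Bgn, biglycan, the member with the highest count, stood at 3195 and 2871 CPM with -0.15, so the summed CPM of the list was no higher with α-amyrin, at 3861 and 3641. At passage 6 the median was -0.09.

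Enzymes and receptors of collagen showed smaller differences. Of 26 processing and crosslinking genes, 3 were at least 0.32 lower: Tll1, a procollagen-cleaving tolloid protease (-0.89), Loxl2, a lysyl oxidase that crosslinks collagen (-0.54), and Bmp1, the procollagen C-proteinase (-0.46). Loxl4, another lysyl oxidase, was the single member at least 0.32 higher (0.38). Of 19 integrins and other collagen receptors, 3 were at least 0.32 lower, namely Itga11 (-0.78), whose product pairs with integrin β1 to bind collagen I, Itga4 (-0.58) and Itga5 (-0.53), the partner chain for fibronectin. Itga11 stood at 190 and 111 CPM, and at passage 6 at 450 and 288 CPM. Further matrix-related genes below 2-fold were chosen after their values were seen: Lrrc15 (-0.90), a membrane protein of activated fibroblasts, Cthrc1 (-0.67), a secreted protein of injured tissue, Has2 (-0.72), a hyaluronan synthase, and Adam12 (-0.61), a membrane protease.

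**Figure D4:**
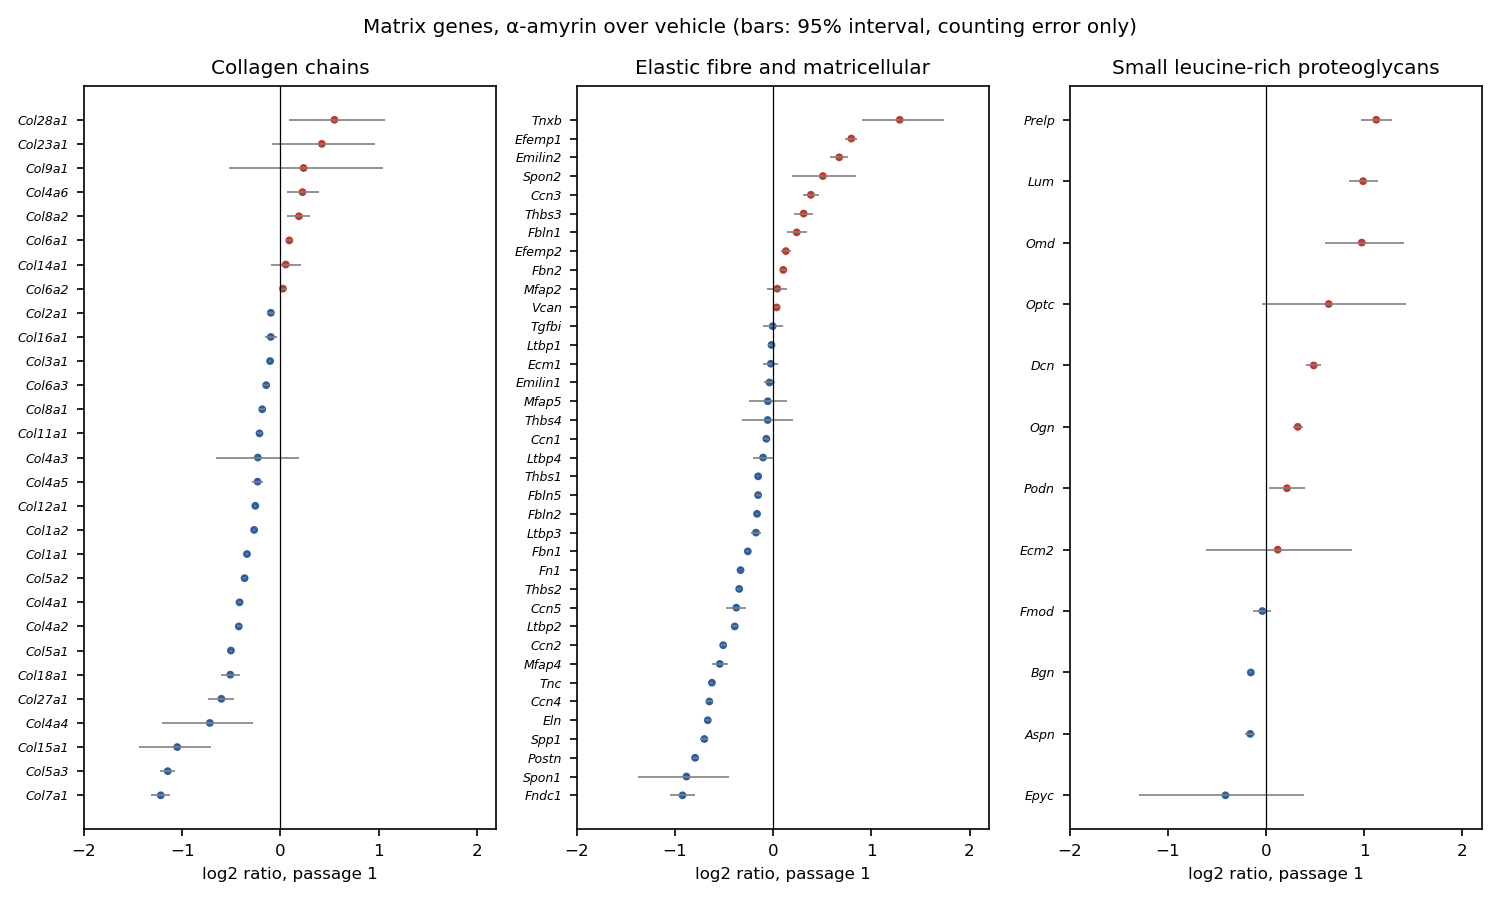
Log2 ratio of α-amyrin over vehicle at passage 1 for collagen chains (29 genes), elastic fibre and matricellular genes (37) and small leucine-rich proteoglycans (12), sorted within each panel; bars are 95% intervals for counting error only and red and blue mark ratios above and below 0. Col7a1 (-1.22) and Fndc1 (-0.92) lie at the bottom of their panels, and Tnxb (1.29) and Prelp (1.12) at the top of theirs.

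TGF-β signalling induces many matrix genes, and its components lay on both sides of 0. Of 36 ligands, receptors and feedback genes, 22 were higher and 14 lower, with 5 at least 0.32 higher, 7 at least 0.32 lower and a median of 0.07. Among feedback targets, Fstl3, a secreted activin binder, stood at 25.9 and 15.9 CPM with -0.70. Among ligands, Inhba, the activin A chain, had -0.48 and Tgfb3 -0.45, while Gdf10, a BMP-family ligand, stood at 7.63 and 12.2 CPM with 0.67. Among receptors, Tgfbr3, the co-receptor betaglycan, stood at 35.4 and 75.0 CPM with 1.08, and Tgfbr2, the type II receptor, at 245 and 318 CPM with 0.38. Of the genes named here, Fstl3, Inhba and Tgfb3 were lower and Gdf10 and the receptors higher. At passage 6 each had the same direction, with Fstl3 at -0.13, Inhba at -0.26, Tgfb3 at -0.22, Gdf10 at 0.30, Tgfbr2 at 0.33 and Tgfbr3 at 0.59.

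Contractile genes, many of which are driven by serum response factor, were slightly lower. Of 36 members 27 were lower and 9 higher, but only 3 were at least 0.32 lower: Synpo2, an actin-bundling protein (-0.64), Cnn1, calponin (-0.44), and Pdlim7, an actin-associated scaffold (-0.34). Acta2, smooth muscle actin and a myofibroblast marker, stood at 3565 and 2953 CPM, a ratio of -0.27. At passage 6 it stood at 2527 and 1924 CPM. The median of the list was -0.10 at passage 1 and -0.12 at passage 6, and it was 0.08 for β-amyrin over the same passage 1 vehicle library.

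Growth factor systems showed members in both directions. In the WNT list, 7 of 29 members were at least 0.32 higher and 4 at least 0.32 lower; besides Sfrp2 and Rspo2 these included the ligand Wnt2 (0.81) and Lgr5 (0.78), a receptor for R-spondins, on the higher side and the ligand Wnt9a (-0.78) on the lower. In the list of insulin-like growth factor (IGF) genes, Pappa, a protease that frees IGF from its binding proteins, stood at 177 and 93.9 CPM, a ratio of -0.91, while its substrate Igfbp4 stood at 136 and 222 CPM with 0.70 and Igf2 at 115 and 175 CPM with 0.60. Among PDGF, FGF and related genes, Pdgfra, a receptor of mesenchymal progenitors, stood at 121 and 189 CPM with 0.64 and Kitl, stem cell factor, at 23 and 41.9 CPM with 0.86. Hbegf, an EGF receptor ligand, stood at 65.0 and 34.2 CPM with -0.92, and Vegfa, the vascular growth factor, at 103 and 70.1 CPM with -0.55.

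Imprinted growth genes, which are read from 1 parental allele and are active in embryos, were mostly higher. Of 21 that passed the filter, 15 were higher and 6 lower, 8 were at least 0.32 higher and none 0.32 lower, with a median of 0.24. H19, a noncoding RNA of the Igf2 domain, stood at 5763 and 8500 CPM, a ratio of 0.56, and Dlk1, a membrane inhibitor of adipocyte maturation, at 177 and 302 CPM with 0.77. Peg10, a retrotransposon-derived gene, had 0.57, and Cdkn1c, the p57 inhibitor of the cell cycle, had 0.47. Meg3, a noncoding RNA of the Dlk1 domain, had -0.16, so Dlk1 and Meg3 differed in opposite directions. At passage 6 H19 had 0.60 and Dlk1 0.54 from much lower levels of 616 and 49.8 CPM with vehicle, and the list median was 0.06.

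ATF4 targets and amino acid genes leaned lower as a list. ATF4 is a transcription factor made when amino acids run short or misfolded protein builds up, and it switches on genes that import and make amino acids and charge tRNA. Many of its targets hold a composite element, bound by ATF4 with a C/EBP partner, for which TGATGNAA (TTNCATCA on the reverse strand) was searched in the 250 bases before each start site. A few are shown so that the element can be seen in transporter and enzyme genes of the list. Promoters are RefSeq sequences of GRCm38.p6, the assembly of mm10, 5′ to 3′ on the gene's strand, with the matches in capitals: Slc7a11 at chr3:50443628-50443704 (minus strand), Asns at chr6:7693210-7693257 (minus strand), Chac1 at chr2:119351024-119351081 (plus strand) and Pycr1 at chr11:120643819-120643876 (minus strand).
Slc7a11: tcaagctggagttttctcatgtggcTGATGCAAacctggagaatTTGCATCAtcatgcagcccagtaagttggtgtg
Asns: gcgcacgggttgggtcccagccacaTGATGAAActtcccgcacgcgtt
Chac1: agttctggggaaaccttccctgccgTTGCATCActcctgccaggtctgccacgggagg
Pycr1: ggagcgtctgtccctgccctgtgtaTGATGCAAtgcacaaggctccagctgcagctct

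Slc7a11 held 2 matches facing each other and the other 3 held 1 each. A match was found in 10 of the 33 listed genes that had a RefSeq promoter, which is 30.3%, against 3.45% of all 32851 promoters and 2.40% of the 11525 genes that passed the filter and had a promoter. Within the list the median ratio was -0.41 for genes with a match and -0.30 for those without. A match is a description of the letters and no evidence of binding. The list was drawn up around known ATF4 targets, so its higher share of matches follows from that choice and says nothing about α-amyrin.

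All 40 ATF4 list genes passed the filter and all 40 had a lower value with α-amyrin, against 39 with DESeq2 size factors and 38 with scaling by total counts. Of them 18 were at least 0.32 lower and none was higher by that size, with a median of -0.30. For 35 of the 40 the counting interval lay below 0, as it did for 17.1% of all genes. That share was not matched for level, on which the width of such an interval depends. Amino acid transporters had the lowest ratios: Slc7a3, a cationic amino acid transporter, stood at 20.5 CPM with vehicle and 10.0 CPM with α-amyrin (-1.02), and Slc7a11, the cystine importer, at 21.7 and 11.8 CPM (-0.88). The large neutral transporter Slc7a5 stood at 234 and 169 CPM (-0.47). Enzymes of amino acid synthesis were lower as well: Asns, asparagine synthetase, stood at 152 and 101 CPM (-0.59), Psat1 and Phgdh of serine synthesis had -0.42 and -0.33, and Cth, which makes cysteine, had -0.65. Of the other genes whose promoters are shown, Pycr1, an enzyme of proline synthesis, stood at 22.8 and 16.8 CPM (-0.44) and Chac1, which breaks down glutathione, at 29.2 and 20.6 CPM (-0.50). Gars, the glycyl-tRNA synthetase, had -0.37.

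Of the regulators of the same pathway, Atf4, Atf5 and Ddit3 lay closer to 0 than the list median. Atf4 itself stood at 284 and 242 CPM (-0.23), Atf5, a related factor, at 237 and 201 CPM (-0.24), and Ddit3, the stress factor CHOP, at 60.7 and 50.2 CPM (-0.27). Trib3, a pseudokinase induced late in the response, stood at 45.4 and 29.5 CPM (-0.62), while Atf3, a related stress factor, stood at 7.20 and 7.16 CPM. The β-amyrin library held 22.3 CPM of Slc7a11, 139 CPM of Asns and 234 CPM of Slc7a5, and the list median for β-amyrin over the same vehicle library was -0.06.

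At passage 6 the list did not show this lean. The median was 0.07, with 24 members higher and 15 lower with α-amyrin, against 53.4% of all genes higher and 46.5% lower in that pair. Trib3 stood at 4.44 CPM with vehicle and 12.6 CPM with α-amyrin there, a ratio of 1.49 and opposite to passage 1, and Chac1 at 6.76 and 11.8 CPM (0.79). Slc7a3 was the lowest member at either passage. No test of the difference between passages was possible with 1 library a side.

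Protein folding genes of the endoplasmic reticulum, a neighbouring branch of the stress response, stayed near 0: of 28 that passed the filter 18 were lower and 10 higher, 2 were at least 0.32 lower, and the median was -0.06. NRF2 targets, the antioxidant genes, had a median of -0.10 with 4 of 34 at least 0.32 lower, a list that also holds Slc7a11.

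Interferon-stimulated genes showed the opposite lean. These genes are switched on by a transcription factor complex that holds IRF9 after interferon binds its receptor, through an element whose core was searched as GAAANNGAA (TTCNNTTTC on the reverse strand) in the same windows. The promoters of the 2 members past the 2-fold rule and of Isg15, which encodes a ubiquitin-like modifier, are shown in the same way: Ifit3 at chr19:34583349-34583460 (plus strand), Ifit1 at chr19:34640755-34640838 (plus strand) and Isg15 at chr4:156200851-156200921 (minus strand).
Ifit3: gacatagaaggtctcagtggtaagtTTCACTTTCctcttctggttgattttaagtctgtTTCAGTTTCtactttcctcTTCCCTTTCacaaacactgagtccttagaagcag
Ifit1: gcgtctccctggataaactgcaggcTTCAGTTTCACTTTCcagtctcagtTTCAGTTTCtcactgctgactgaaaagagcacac
Isg15: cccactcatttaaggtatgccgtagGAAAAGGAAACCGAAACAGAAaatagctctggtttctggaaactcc

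Each of the 3 windows held 3 matches, which overlap in Ifit1 and Isg15. The window of Ifit3b, a neighbouring copy of Ifit3, has the same letters, so reads of the transcripts may also be hard to assign between the copies. Of 40 listed genes with a RefSeq promoter 21 had a match, which is 52.5%, against 7.13% of all promoters and 7.35% of genes that passed the filter and had a promoter. This share, too, follows from how the list was drawn up and says nothing about α-amyrin. The median ratio was 0.41 for genes with a match and 0.36 for those without.

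Of 53 interferon-stimulated genes that passed the filter out of 59 listed, 50 were higher with α-amyrin and 3 lower, 16 were at least 0.32 higher with 5 CPM and none was 0.32 lower, with a median of 0.40. For 32 of the 53 the counting interval lay above 0, as it did for 16.5% of all genes, a share again not matched for level. Ifit3, an RNA-sensing antiviral protein, stood at 2.61 CPM with vehicle and 7.81 CPM with α-amyrin, from 68 and 230 counts, a ratio of 1.55 with an interval of 1.19 to 2.0. Ifit1, which binds viral RNA caps, stood at 4.87 and 12.1 CPM (1.29). Gbp2, an interferon-induced GTPase, stood at 5.36 and 9.88 CPM (0.87), Usp18, which removes ISG15, at 3.72 and 7.26 CPM (0.95), and Isg15 at 6.82 and 10.2 CPM (0.58). Ifitm3, a membrane protein that blocks viral entry, had higher counts and stood at 199 and 272 CPM (0.45). Trim25, a ubiquitin ligase, stood at 57.3 and 75.9 CPM (0.41), and both ratios lay near the list median.

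Of the signalling components named here, Stat2 (0.12) and Irf1 (0.04) had ratios below the list median of 0.40. Irf9, the DNA-binding partner, stood at 25 and 33.9 CPM (0.44), above that median. Of the 53 genes, 24 stayed below 5 CPM in both libraries, so many ratios rest on few counts. On the authors' FPKM values with a pseudocount of 1 the list median was 0.23.

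Other libraries gave other values for these genes. At passage 6 the list median was -0.11, with 18 members higher and 35 lower, although Ifit3 (0.65) and Ifit1 (0.37) were higher there too. In the passage 1 β-amyrin library Ifit3 stood at 1.73 CPM and Ifit1 at 3.58 CPM, both below vehicle, and the list median over the same vehicle library was -0.50. Macrophages also express these genes, and the summed CPM of 17 macrophage markers was 405 in the vehicle library, 353 with α-amyrin and 49.5 in the β-amyrin library. Within the α-amyrin pair 10 of the 17 were higher and 7 lower, with a median of 0.01, and Lyz2 alone stood at 136 and 85.5 CPM. The part of macrophages in either difference was not tested.

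**Figure D5:**
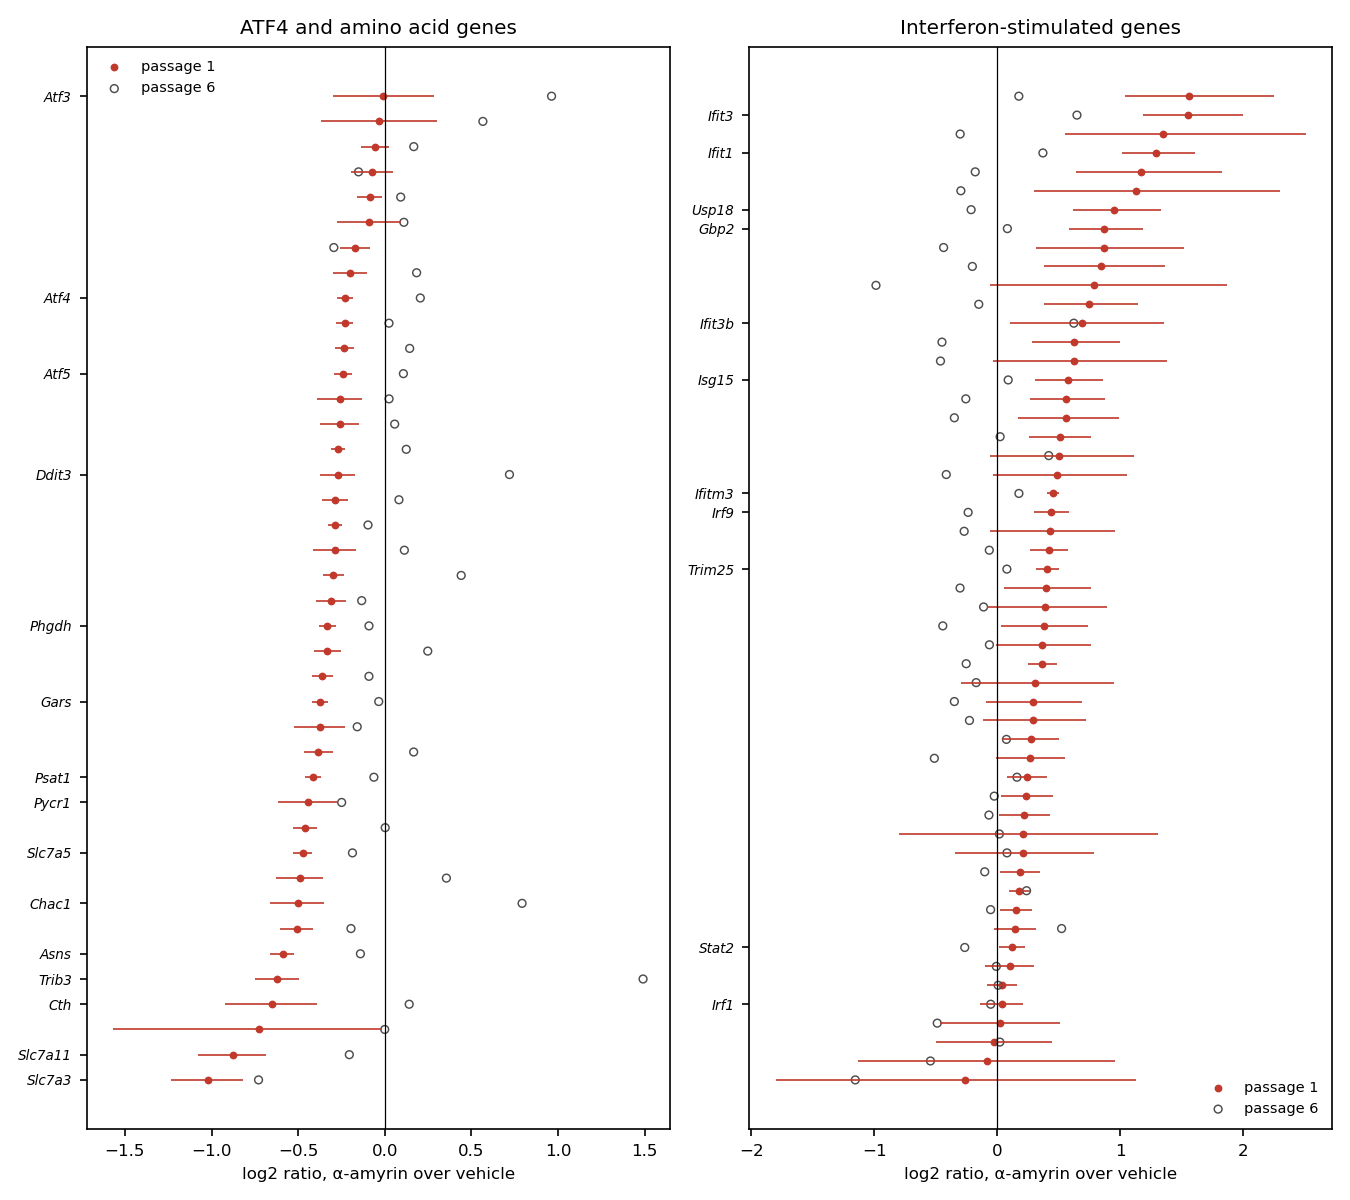
Log2 ratio of α-amyrin over vehicle for each ATF4 and amino acid gene (left) and each interferon-stimulated gene (right) that passed the filter, with names for the genes given in the text; filled red points are passage 1 with 95% intervals for counting error only, open circles are passage 6, which shares no library with passage 1. All 40 ATF4 list genes lie below 0 at passage 1 with the scaling shown (38 with total counts), with open circles on either side, and 50 of 53 interferon-stimulated genes lie above 0 at passage 1.

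Complement genes, which fibroblasts express at rest, also leaned higher. Of 14 that passed the filter 11 were higher and 3 lower, 6 were at least 0.32 higher and none lower by that size, with a median of 0.41. C1ra, the first serine protease of the classical pathway, stood at 6.40 and 9.98 CPM (0.63), Cd55, a surface inhibitor of complement, at 31.0 and 45.9 CPM (0.56), and Serping1, the C1 inhibitor, at 8.55 and 12.6 CPM (0.56). The complement receptors C3ar1 and C5ar1, which macrophages express, had ratios of 0.08 and -0.09. At passage 6 the median was 0.17. Antigen presentation by MHC class I differed less, with 1 of 12 members at least 0.32 higher, Tap2, a peptide transporter chain (0.56), and a median of 0.10. H2-T23, a non-classical class I chain, was at least 0.32 lower (-0.33).

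Sterol genes were a little lower at passage 1. Of 10 enzymes from lanosterol to cholesterol all had lower values with α-amyrin, 9 of them with total counts or FPKM, but a single one, Msmo1, a sterol methyl oxidase, by at least 0.32, at 328 and 253 CPM (-0.37). The median was -0.25 at passage 1 and -1.20 at passage 6. For the 11 mevalonate and squalene enzymes the medians were -0.12 and -0.97. With β-amyrin over the same passage 1 vehicle library the median was -0.42 for the lanosterol list and -0.30 for the mevalonate and squalene list. Hmgcs1, the synthase at the head of the pathway, stood at 592 and 535 CPM (-0.15) at passage 1 and at 220 and 91.1 CPM (-1.27) at passage 6.

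Targets of the LXR oxysterol receptors included a larger difference. Abca1, a cholesterol exporter, stood at 57.4 and 30.2 CPM, a ratio of -0.93, with 30.4 CPM in the β-amyrin library. At passage 6 it stood at 221 and 212 CPM, a ratio of -0.06. Scd2, a fatty acid desaturase, stood at 2853 and 1953 CPM (-0.55), and Scd1, its paralogue, had -0.39. Pltp, the phospholipid transfer protein, went the other way at 29.9 and 45.5 CPM (0.61). Over 14 members the median was -0.20, with 4 at least 0.32 lower and 1 higher by that size. With β-amyrin over the same vehicle library the list median was -0.34. Apoe, a lipid carrier that macrophages make in quantity, had a ratio of -0.37, and the macrophage marker Lyz2, lysozyme, had -0.67, whereas 10 of the 17 macrophage markers were higher, among them Cd68, a lysosomal membrane protein, at 0.46. The part of macrophage content in the LXR values was not tested.

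Proliferation genes differed by small amounts. Of 55 genes of G2, M phase and mitosis, 47 were higher and 8 lower, with 3 members at least 0.32 higher and a median of 0.13. Of 44 genes of G1, S phase and replication, 36 were higher and 8 lower, with 1 member at least 0.32 higher and a median of 0.11, and on FPKM 42 were higher and 2 lower. Mki67, the proliferation antigen, stood at 170 CPM with vehicle and 169 CPM with α-amyrin. Among senescence markers, Cdkn2a, which encodes p16 and p19, stood at 19.4 and 17.2 CPM (-0.17, interval -0.35 to 0.01), Cdkn1a, which encodes p21, at 532 and 565 CPM (0.09), and Lmnb1, lamin B1, at 90.6 and 99.7 CPM (0.14). Cdkn2b, the p15 inhibitor, stood at 68.4 and 51.8 CPM (-0.40). Targets of p53 had a median of 0.04 over 30 genes, with 3 at least 0.32 higher and 4 lower by that size.

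Secreted factors of the senescent phenotype had a median of -0.03 over 25 genes that passed the filter out of 34, a median that turned positive with scaling by total counts. Besides Cxcl5, the ratios reached -0.56 for Lif, a cytokine of the IL-6 family, -0.50 for Cx3cl1, a membrane chemokine, and -0.43 for Cxcl14, a chemokine of connective tissue. Il6 stood at 1.07 and 1.05 CPM, too low to read. Ptgs2, the inducible cyclooxygenase, stood at 191 and 121 CPM (-0.66), and the β-amyrin library held 242 CPM.

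Nuclear-encoded respiratory chain and ribosomal protein genes leaned slightly higher. Of 66 respiratory chain subunits 58 were higher and 8 lower, 10 at least 0.32 higher, with a median of 0.13. Of 77 cytosolic ribosomal protein genes 55 were higher and 22 lower, with a median of 0.08, and with scaling by total counts 63 were higher and 14 lower. With β-amyrin over the same vehicle library the medians were 0.11 for the respiratory chain and 0.12 for the ribosomal list. Both lists hold short genes, with median exonic lengths of 1814.5 and 1781 bp, against 7833 bp for the collagens. Over 11639 genes with at least 5 CPM and an annotated length, the rank correlation across genes of exonic length with the ratio was -0.17 at passage 1 and -0.16 at passage 6, and the fifth of genes with the shortest exons had a median of 0.05 while that with the longest had -0.04. Genes are not independent replicates, and the part of length in the list values was not tested.

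Markers of other cell types in the culture were read for the whole marker lists. All 9 mesothelial markers, genes of the lining cells of body cavities, were higher with α-amyrin, 7 of them by at least 0.32, with a median of 0.37 and a summed level of 227 and 284 CPM. Upk3b, a membrane protein of mesothelium, stood at 52.5 and 67.7 CPM (0.37) and Krt19, a keratin, at 22.5 and 31.0 CPM (0.46). Of 9 cardiac muscle genes that passed the filter 7 were higher, with sums of 45.5 and 61.1 CPM; Tnnt2, cardiac troponin T, stood at 13.6 and 19.4 CPM (0.51). The 17 macrophage markers were split, with 10 higher and 7 lower and a median of 0.01, and Mrc1, the mannose receptor, had -0.70 where Tyrobp, an adaptor of immune receptors, had 0.56. Fibroblast markers were split as well, with 10 of 16 higher, Lum and Pdgfra at one end and Fap (-0.38), a fibroblast activation protease, at the other.

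The remaining marker sums were 753 and 666 CPM for smooth muscle and pericytes, 996 and 782 CPM for cartilage and bone, 505 and 398 CPM for neural and glial genes, 109 and 142 CPM for adipocytes, 144 and 138 CPM for endothelium, 84.7 and 87.8 CPM for skeletal muscle and 43.7 and 53.1 CPM for epithelium. Such sums follow the members with the most counts. Of 11 cartilage and bone markers 6 were higher and 5 lower, with a median of 0.24, while Spp1 stood at 472 and 290 CPM. Of 11 skeletal muscle markers 8 were lower and 3 higher, with a median of -0.30, while Des stood at 51.5 and 62.8 CPM. Adipoq, Pax7, Cldn5, Krt5 and the adult globin genes had 0 counts in both libraries. At 3 counts of the smaller total that allows at most 0.115 CPM. Mesothelial and cardiac markers were thus higher in the same library as the genes named above, and their part in those differences was not tested.

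Some of the largest ratios belong to pseudogenes and predicted genes. Gm9780, a predicted gene on chromosome 14, had 9 counts with vehicle and 432 with α-amyrin, the highest ratio of all at 5.11, and at passage 6 it stood at 0.127 and 2.92 CPM. The β-amyrin library held 0.522 CPM at passage 1, so both α-amyrin libraries stood above the other passage 1 and passage 6 libraries named here. Gm4786, a processed pseudogene, stood at 3.95 and 30.0 CPM (2.90), and Gm10705, another, at 19.1 and 1.46 CPM (-3.64). Rpl7a-ps5, a pseudogene copy of Rpl7a, stood at 10.7 and 32.5 CPM (1.59) while Rpl7a, a ribosomal protein gene, stood at 306 and 214 CPM (-0.51). Such copies share sequence with their parent genes, no source used here says how the authors' counting split their reads, and the placement of reads was not tested, so these values are uncertain.

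Gapdh, a glycolytic enzyme often used as a reference gene, stood at 46.4 CPM with vehicle, 12.1 CPM with α-amyrin and 21.3 CPM in the β-amyrin library, and at passage 6 at 8.66 and 31.1 CPM. Its ratio of -1.93 at passage 1 turned to 1.84 at passage 6. Gapdh has many processed pseudogenes, and it overlaps Iffo1, a gene of the other strand that stood at 18.1 and 19.8 CPM at passage 1. The placement of Gapdh reads was not tested. Ldha and Pfkl, other glycolytic genes, had ratios of 0.28 and 0.31, and the median of the 34 hypoxia and glycolysis genes was 0.08. Adm, adrenomedullin, a vasodilator peptide induced by hypoxia, stood at 29.5 and 54.5 CPM (0.88).

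Overlapping genes limit a few of the values. Gm26771 (1.73) overlaps Sfrp2 on the other strand, and Fam166a, at 6.02 and 12.7 CPM, overlaps the tubulin gene Tubb4b, at 237 and 288 CPM (0.28). Penk, Arhgap20, Prelp, Sned1, Pla2g7 and Fbxo32 each overlap a gene of the other strand that differed in the same direction. The libraries were made with a directional kit, but no source used here says whether counting used strand, so reads of such partners cannot be told apart. The partner stood at a higher CPM than Gm26771, Fam166a and, as given above, Angptl7, and at a lower CPM than Penk and the genes listed with it. The partner of Gapdh, given above, stood below Gapdh with vehicle and above it with α-amyrin.

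Passage 6 gave a look at the same genes in libraries that share none with passage 1. Of the 35 genes at least 2-fold higher at passage 1, 29 were higher with α-amyrin at passage 6, 20 of them by at least 0.32, with a median of 0.36. Of the 21 lower genes, 17 were lower at passage 6, 10 of them by at least 0.32, with a median of -0.23. In the passage 6 pair 53.4% of all genes were higher and 46.5% lower, 10.8% of all genes were at least 0.32 higher and 10.8% at least 0.32 lower, with no CPM minimum in either count. Across 10835 genes with at least 5 CPM in all 4 of these libraries, the ratios at the passages had a Pearson correlation of 0.33 and a Spearman correlation of 0.32. This is a description across genes, which share length and base composition, not across replicates.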

How the data were processed

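Poly(A) RNA of MEFs was sequenced from libraries made with a directional kit, per the labels' protocols. The build mm10 and, with no settings, featureCounts 1.6.3, HISAT2 2.1.0, SAMtools 1.9, Trimmomatic 0.38 and FastQC 0.11.7 are named per the submitters' processing notes. The authors deposited raw counts per gene, used for every main value, and FPKM values, whose computation no source used here describes and which served as an alternative.

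TMM factors and the filterByExpr filter (passage as group) came from all 6 libraries in edgeR 4.0.16 (R 4.3.3), and DESeq2 1.42.0 gave alternative size factors. Ratios used a prior count of 2. Intervals were exact conditional intervals; the ratio, interval and size rule were tested on simulated data. No test was made, since each condition has 1 library. Exonic lengths came from GENCODE vM21 (the same build) and promoters from RefSeq GRCm38.p6.

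Named by rule were the 15 highest and 15 lowest ratios of the 2-fold rule (numbered models only among the 5 outermost), up to 4 members per list with the largest absolute ratio, and fixed genes whatever their value: Cdkn2a, Cdkn1a, Lmnb1, Mki67, Hmgcs1, Abca1, Col1a1, Acta2, Il6 and Lyz2. Some genes that the rule names are not reported here. Other genes named, mostly list members, were chosen after their values were seen. The members and the gene lists were chosen with earlier results of these data known.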

Additional observations from a re-analysis of the deposited data

Results flagged for a closer look

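At passage 1 and passage 6 some responses to α-amyrin had opposite directions. The size asked for at each passage was at least 0.32 (log2) for a gene or 0.1 (log2) for a list median. Only genes named by rule or past the 2-fold rule were searched, with at least 5 CPM in either library at each passage. Other genes, such as Chac1 above, were outside that search. The difference was not tested in any case, since each side is 1 library, and the values compare libraries, not conditions. Gapdh had a log2 ratio of -1.93 at passage 1 and 1.84 at passage 6, a difference of -3.77. Trib3, a pseudokinase of the ATF4 response, had -0.62 and 1.49, a difference of -2.11. Gadd45a, a p53 and stress target, had -0.41 and 0.42, a difference of -0.83.

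Among lists, the median of the interferon-stimulated genes was 0.40 at passage 1 and -0.11 at passage 6, a difference of 0.51. Marker lists with opposite medians were cardiac muscle (0.43 and -0.43, a difference of 0.86), cartilage and bone (0.24 and -0.36, a difference of 0.60) and neural and glial genes (-0.20 and 0.15, a difference of -0.35). The summed level of the cardiac markers at passage 6 was 6.13 CPM with vehicle and 4.56 CPM with α-amyrin, so those ratios rest on few counts.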

How the results depend on the processing

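The 35 higher and 21 lower genes of the 2-fold rule became 110 and 82 when 1 CPM in place of 5 was asked for, and 23 higher genes were left at 10 CPM, where 14 were lower. Under the other alternatives the counts ran from 27 to 39 higher and from 17 to 22 lower; FPKM gave 27 and 17, of which 18 and 8 were genes of the main sets. Scaling from the pair alone and protein-coding genes only were chosen after seeing the data. The medians of the collagen, ATF4 and interferon lists kept their signs under all 6 alternatives run for them; of 42 list medians, total counts turned 8 and FPKM 6, and DESeq2 size factors 2. Of 173 named genes, 3 changed sign with total counts (Il6, Atf3 and Mki67), 2 each with DESeq2 size factors and FPKM, and 1 with pair scaling. Leaving out a replicate was not possible with 1 library a condition. No paired analysis was possible because each condition has 1 library and the labels give no replicate numbers. Depth limits genes under about 5 CPM, and variation between cultures was not measured.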

Other observations

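Gene groups outside the comparisons above were mostly near 0 at passage 1, with single members that differed. Of 24 metalloproteinases and their inhibitors 12 were higher and 12 lower with α-amyrin, with a median of -0.02. Timp2, an inhibitor of matrix metalloproteinases, stood at 1067 CPM with vehicle and 1349 CPM with α-amyrin (log2 ratio 0.34), and at 2602 and 3110 CPM at passage 6. Adamts1, a secreted protease that cleaves proteoglycans, stood at 292 and 390 CPM (0.42), while Adamts4, a related aggrecan-cleaving protease, stood at 22.8 and 15 CPM (-0.60). Of 12 genes of the plasminogen system and coagulation 4 were at least 0.32 lower and 1 was higher by that size. They include Tfpi2, a protease inhibitor of the matrix, at 10.5 and 5.60 CPM (-0.90) and Serpinf1, the secreted factor PEDF, at 344 and 252 CPM (-0.45).

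The prostaglandin list had 8 higher and 8 lower members of 16, with a median of -0.01. Receptors in it were higher: Ptgir, the prostacyclin receptor, at 2.84 and 5.02 CPM (0.81) and Ptgfr, the receptor of prostaglandin F, at 5.21 and 7.43 CPM (0.51), though at passage 6 their ratios were -0.05 and -0.13. Of 20 angiotensin and vasoactive genes 13 were higher and 7 lower, with a median of 0.14. The endothelin receptors differed in direction, Ednrb at 3.37 and 5.60 CPM (0.72) and Ednra at 39.3 and 30.8 CPM (-0.35). Among 38 immediate early and MAPK feedback genes, with a median of -0.02, the zinc finger factor Klf2 stood at 22.9 and 35.3 CPM (0.62) and the ERK phosphatase Dusp5 at 26.2 and 17.4 CPM (-0.59), and the Dusp5 ratio at passage 6 was 0.16. Heat shock (22 genes), lysosome (43) and AHR target (7) lists had medians of -0.01, -0.01 and 0.04.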
